A study of Mus musculus with 2 samples.

Results

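The major histocompatibility complex (MHC) class II genes and their transactivator were followed through the cells of the mouse spleen. They comprised H2-Aa, H2-Ab1, H2-Eb1, H2-Eb2, Cd74, H2-DMa, H2-DMb1, H2-DMb2, H2-Ob and Ciita, 10 of the 32285 genes counted, and were taken by symbol with no measured value in the choice. Transcripts were counted in single cells as unique molecular identifiers (UMIs), each of which stands for 1 captured RNA molecule. The 10 genes held 748547 of 32797052 UMIs in a library from a wild-type mouse and 584018 of 25193274 UMIs in a library from a mouse with the MEFV M694I knock-in. Pyrin, the product of Mefv, starts an inflammasome, and changes such as M694I underlie familial Mediterranean fever in people. The mice were matched for age, and the sources used here name neither their strain, sex nor exact age. Both spleens were broken up mechanically and freed of red cells, and no cell type was sorted, so each library mixes lymphocytes and myeloid cells. Each genotype has 1 library, so no difference could be tested against replicates. All intervals below are 95% intervals for counting error only, and genotype cannot be told apart from the individual mouse or the library preparation.

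MHC class II molecules present peptides from taken-up material to CD4+ T cells. An alpha and a beta chain (H2-Aa with H2-Ab1 for I-A; H2-Eb1 as the beta chain of I-E) are guided by the invariant chain Cd74 into acidic vesicles. There DM, made of H2-DMa with H2-DMb1 or H2-DMb2, exchanges the invariant chain remnant for peptide, and DO, made of H2-Oa with H2-Ob, restrains DM. Ciita is the transactivator that these genes depend on. It binds no DNA itself and acts through factors that sit on the X and Y elements of class II promoters. B cells and dendritic cells express these genes at rest, monocytes and macrophages to varying degrees, and resting mouse T cells are not known as producers of I-A and I-E.

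In GRCm38 (mm10) the class II genes of the list lay together with H2-Oa on chromosome 17, where these 9 genes spanned 249 kb. H2-DMa, H2-DMb2 and H2-DMb1 are neighbours, from 34119541 to 34160230, followed by H2-Ob (34238903 to 34254414), H2-Ab1 (34257689 to 34269419), H2-Aa (34282744 to 34287823), H2-Eb1 (34305867 to 34316674) and H2-Eb2 (34325665 to 34341412). H2-Aa is on the minus strand and the others are on the plus strand. Cd74 lies on another chromosome. Ciita lies on chromosome 16 from 10480059 to 10528418 on the plus strand, with 6 protein-coding transcripts of 2 to 20 exons, and starts 6.76 Mb beyond the end of Mefv on the same chromosome.

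The promoter stretches below are shown because they carry the elements through which Ciita acts on these genes together. RefSeq promoter windows on GRCm38.p6 (250 bases before to 50 bases after a gene start) were matched by symbol for 7 of the 10 genes. The X element was searched as AACNNATGATG and the Y element as TGATTGG, on both strands, and the letters were chosen after these windows had been seen. The elements do not overlap in these genes. Capitals mark both elements, and each sequence runs 5′ to 3′ along its gene's strand.
H2-DMb2, chr17:34145117-34145169, plus strand: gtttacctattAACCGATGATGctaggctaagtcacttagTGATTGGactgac
H2-DMb1, chr17:34153088-34153140, plus strand: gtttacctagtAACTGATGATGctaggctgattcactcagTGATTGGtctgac
H2-Ob, chr17:34238806-34238858, plus strand: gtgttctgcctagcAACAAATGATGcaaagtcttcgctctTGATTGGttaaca
H2-Eb1, chr17:34305766-34305818, plus strand: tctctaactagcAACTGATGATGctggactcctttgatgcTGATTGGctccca
H2-Aa, chr17:34287861-34287913, minus strand: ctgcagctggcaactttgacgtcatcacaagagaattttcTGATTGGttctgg
H2-Eb2, chr17:34325533-34325585, plus strand: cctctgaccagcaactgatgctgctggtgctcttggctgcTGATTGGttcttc
Of these stretches 4 hold both elements, with 15 bases between X and Y in H2-Ob, 17 in H2-Eb1 and 18 in H2-DMb1 and H2-DMb2. The H2-Aa and H2-Eb2 stretches hold Y with no match to the X letters, and neither window of H2-DMa holds a match to X or Y. Of all 32851 windows, 45 (0.137%) held X, 2568 (7.82%) held Y, and 4 (0.0122%) held X followed by Y within 30 bases. Those 4 windows are the ones of H2-DMb1, H2-DMb2, H2-Ob and H2-Eb1, from which the letters were read.

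Cells were assigned to classes by marker genes, none of which is a class II gene: a cell belonged to a class when at least 2 markers of that class had a UMI and no other class reached 2. After filtering, 9511 wild-type and 8409 knock-in cells remained, with medians of 2527 and 2023 UMIs. The wild-type and knock-in libraries held 5736 and 4928 B cells, 1739 and 1644 T cells, 276 and 143 NK cells, and 109 and 91 monocytes. Rarer were neutrophils (112 and 49), plasma cells (33 and 109), conventional dendritic cells (37 and 20), macrophages (26 and 21) and plasmacytoid dendritic cells (16 and 21). No class was reached by 1155 and 1108 cells, and 75 and 69 cells passed both the B and the T gate. The B markers Cd79a, Cd79b and Ms4a1 summed to 4101 and 4896 CPM (UMIs of a gene or list per 1000000 UMIs of the class) in B cells and to 26.9 and 26.1 CPM in T cells. Macrophage-gated cells carried these markers as well, at 711 and 586 CPM. The libraries shared 27 barcode sequences, and leaving them out moved none of the ratios, counts and T and NK levels below by more than its counting interval.

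B cells and conventional dendritic cells held the highest class II levels of the classes in both libraries, apart from wild-type macrophage-gated cells. A CPM value is a share of all UMIs of a class in 1 library, and since each UMI counts a transcript end it is not scaled by gene length. The chain H2-Aa stood at 4579 CPM (4547 to 4611) in wild-type and 4582 CPM (4545 to 4619.7) in knock-in B cells. In conventional dendritic cells H2-Aa stood at 5839 CPM (5550.0 to 6139) and 7752 CPM (7279 to 8247). Dendritic cells were thus above B cells in both libraries beyond counting error. The partner chain H2-Ab1 showed the same order, with 3983 and 3918 CPM in B cells and 4709 and 7116 CPM in dendritic cells. H2-Eb1 followed with 4363 and 4315 CPM in B cells and 5278 and 6790.4 CPM in dendritic cells.

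The invariant chain Cd74 was the most abundant of the 10 transcripts in every class of the plot by cell class. It reached 18121 and 20574 CPM in B cells, 15708 and 21891 CPM in conventional dendritic cells, and 9327 and 10871 CPM in plasmacytoid dendritic cells. B and dendritic cells differed in how much Cd74 they carried for their class II chains. For each 100 UMIs of H2-Aa, H2-Ab1 and H2-Eb1 together, B cells held 140.2 (wild-type) and 161 (knock-in) Cd74 UMIs, and conventional dendritic cells 99.3 and 101. Plasma cells, antibody-secreting descendants of B cells, kept less of everything but proportionally more Cd74. Their H2-Aa stood at 849 and 559 CPM and their Cd74 at 4584 and 4975 CPM, or 190.0 and 256 Cd74 UMIs per 100 UMIs of the 3 chains.

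**Figure D1:**
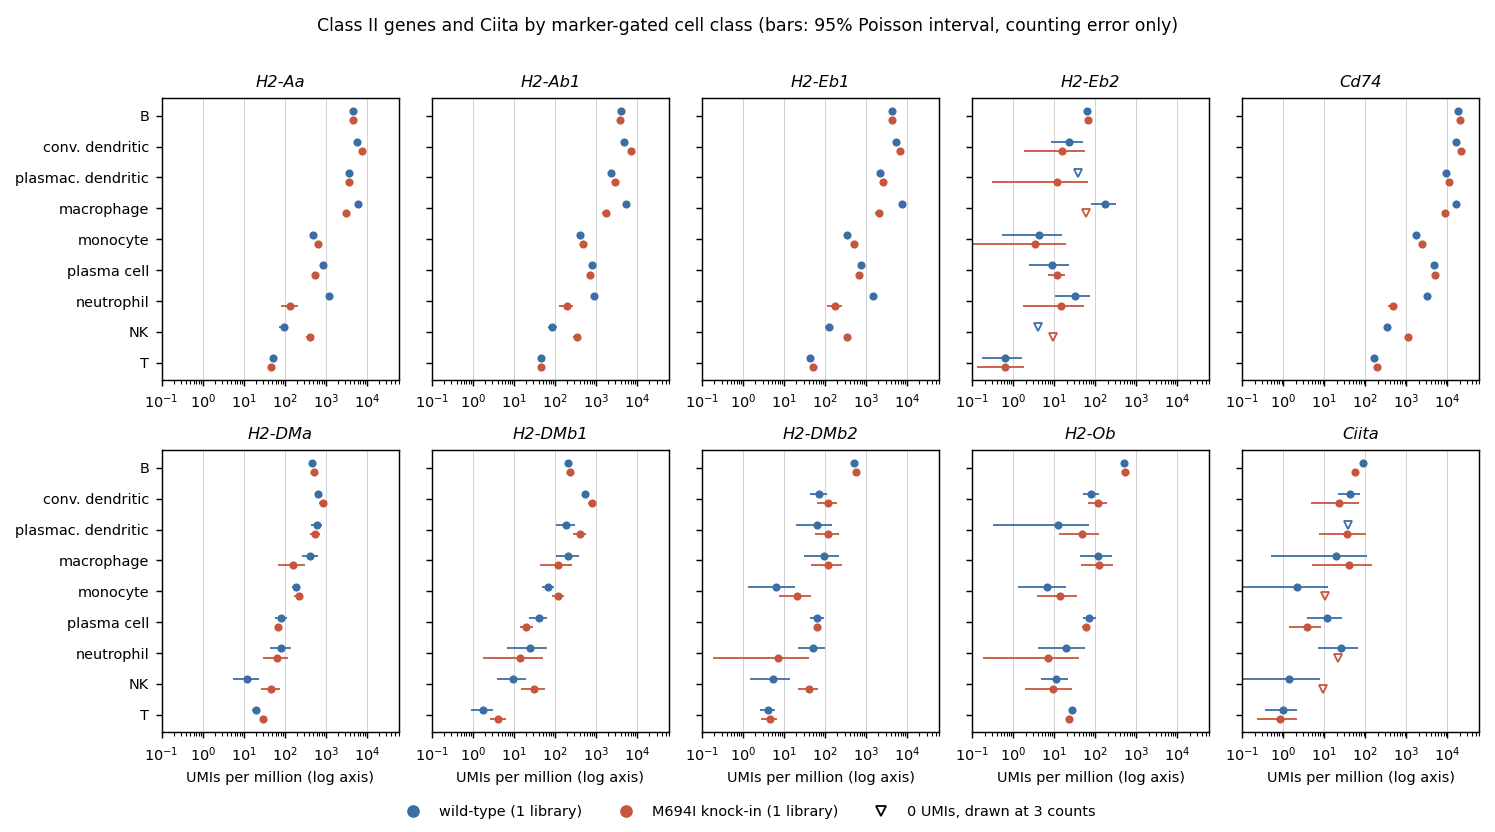
Level of each gene (CPM, log axis) in 9 marker-gated cell classes of the wild-type (blue) and the knock-in (red) library, with 95% Poisson intervals, and open triangles at 3 counts where a class held 0 UMIs. Apart from wild-type macrophage-gated cells, B and conventional dendritic cells sit at the top for the chains and Cd74. T cells lie about 2 decades lower, and Ciita shows its highest level in B cells (86.1 and 55.4 CPM).

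Ciita was a scarce transcript, and it was found chiefly in B cells. Wild-type B cells held 1504 Ciita UMIs, or 86.1 CPM (81.8 to 90.5), and knock-in B cells 704 UMIs, or 55.4 CPM (51.4 to 59.7). Conventional dendritic cells held 11 and 3 Ciita UMIs, or 42.0 CPM (21.0 to 75.1) and 23.3 CPM (4.80 to 68.0). The dendritic interval lay below the B value in the wild-type library and overlapped it in the knock-in library, although dendritic cells carried more H2-Aa, H2-Ab1 and H2-Eb1. Per 100 UMIs of the 3 chains, B cells held 0.666 and 0.433 Ciita UMIs and conventional dendritic cells 0.265 and 0.107. Monocytes held 1 and 0 Ciita UMIs, NK cells 1 and 0, and T cells 6 and 4, or 0.968 CPM (0.355 to 2.11) and 0.842 CPM (0.230 to 2.16). A count of 0 in the 91 knock-in monocytes allows up to 12.6 CPM by the interval. Counted per cell at an equal depth of 1000 UMIs, 8.53% of wild-type B cells (7.82 to 9.29) and 5.71% of knock-in B cells (5.07 to 6.41) had a Ciita UMI, against 0.173% and 0.186% of T cells. Without thinning these shares were 20.3% and 11.9% of B cells at median depths of 2403 and 1887.5 UMIs, and 0.345% and 0.243% of T cells at 3074 and 2524 UMIs.

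The scarce beta chain gene H2-Eb2 was also mainly a B cell transcript among the gated classes, at 64.4 CPM (60.7 to 68.3) and 67.6 CPM (63.2 to 72.3). Conventional dendritic cells held 6 and 2 H2-Eb2 UMIs, or 22.9 CPM (8.40 to 49.8) and 15.5 CPM (1.88 to 56.0), below the B values. Wild-type macrophage-gated cells held 9 H2-Eb2 UMIs, or 173 CPM (79.1 to 328), and knock-in ones held 0. NK cells held 0 in both libraries, which allows up to 5.03 and 11.4 CPM.

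The DM beta chains divided B cells from dendritic cells and monocytes. H2-DMb2 was the main DM beta transcript of B cells, at 506 and 569 CPM, with H2-DMb1 at 207 and 235 CPM. In conventional dendritic cells the order was turned, with H2-DMb1 at 553 CPM (467 to 651) and 798 CPM (652 to 968) and H2-DMb2 at 72.5 CPM (43.7 to 113) and 116 CPM (65.1 to 192). H2-DMb1 made up 29.0% of the UMIs of both genes in wild-type B cells (Clopper-Pearson interval 28.2 to 29.8) and 29.2% in knock-in B cells (28.4 to 30.1). Its share was 88.4% (82.5 to 92.9) and 87.3% (79.9 to 92.7) in conventional dendritic cells, 91.4% (76.9 to 98.2) and 85.4% (70.8 to 94.4) in monocytes, and 75.0% (50.9 to 91.3) and 77.3% (62.2 to 88.5) in plasmacytoid dendritic cells. The intervals of these 3 classes did not overlap those of B cells in either library. Other myeloid classes rested on few UMIs, and of their intervals only that of wild-type macrophage-gated cells lay apart from B cells. The share was 68.8% (41.3 to 89.0) and 50% (21.1 to 78.9) in macrophage-gated cells, on 16 and 12 UMIs, and 33.3% (9.92 to 65.1) in wild-type neutrophils, on 12 UMIs. Within B cells the share ran from 21.3% in knock-in cells of a cluster led by Akap12 and Sox4 to 36.2% in wild-type cells of a cluster led by Mir155hg and Nfkbid. The genes are near copies, and of the 451 windows of 50 bases in the last 500 bases of H2-DMb1, 92 (20.4%) also occur in H2-DMb2, against 0 the other way. Reads from the shared stretch cannot be given to 1 gene, and how they were counted is not given in the sources.

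**Figure D2:**
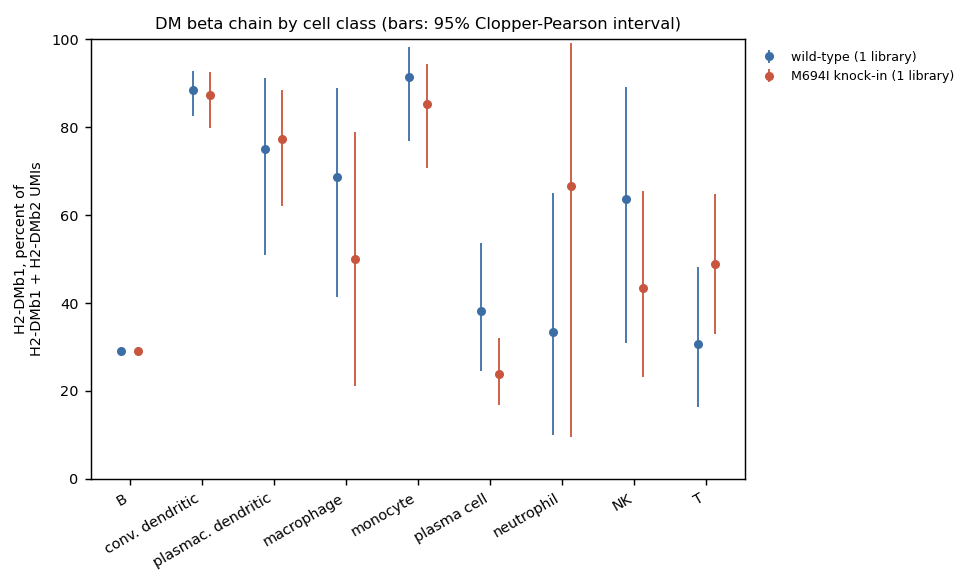
H2-DMb1 as a percent of H2-DMb1 plus H2-DMb2 UMIs in each cell class of both libraries, with 95% Clopper-Pearson intervals. B cells sit at 29.0% and 29.2%, and conventional dendritic cells and monocytes between 85.4% and 91.4%; the neutrophil, NK and T points rest on 3 to 41 UMIs.

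The common DM alpha chain H2-DMa stood at 462 CPM (452 to 472) and 519 CPM (507 to 532) in B cells and higher in conventional dendritic cells, at 664 CPM (569 to 770.4) and 837 CPM (687 to 1011). The DO chains showed the opposite order. H2-Ob, the beta chain of DO, stood at 513 CPM (502 to 524) and 526 CPM (514 to 539) in B cells and at 80.1 CPM (49.6 to 123) and 116 CPM (65.1 to 192) in conventional dendritic cells. Plasmacytoid dendritic cells held 1 and 4 H2-Ob UMIs, or 12.4 CPM (0.314 to 69.0) and 47.3 CPM (12.9 to 121). They held 16 and 22 UMIs of H2-Oa, the alpha chain of DO, which is not one of the 10 genes, or 198 CPM (113 to 322) and 260.0 CPM (163 to 394). These H2-Oa values lay next to those of B cells, at 247 and 305 CPM. Plasmacytoid dendritic cells thus shared the alpha chain of DO with B cells at like levels, and their H2-Ob intervals lay below those of B cells.

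T cells held class II UMIs at about 1% of the B level, and those UMIs were unevenly spread over cells. H2-Aa, H2-Ab1, H2-Eb1 and Cd74 together gave 1883 UMIs in wild-type T cells and 1603 in knock-in T cells. As a share of UMIs that is 0.979% (0.935 to 1.02) and 1.01% (0.962 to 1.06) of the B level of the same library. The background was measured with 15 B cell genes that no gate used. Their median in T cells was 1.31% and 1.06% of the B level, with a range of 0.642% to 14.7% and 0.280% to 12.9%. The class II chains and Cd74 thus lay near the middle of the B genes in both libraries. The median T cell held 0 of these UMIs. In the wild-type library 16 of 1739 T cells had 10 or more of them and held 45.4% of the total, and in the knock-in library 14 of 1644 held 62.3%.

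The few T-gated cells with 10 or more of these UMIs, chosen here by that count, also carried other B genes. Their median B reference gene stood at 21.4% (wild-type) and 29.9% (knock-in) of the B level. The wild-type cell with the most, 108, had 23 UMIs of B reference genes and 11 of T reference genes among 5873 UMIs. The knock-in cell with the most, 316 of 5092 UMIs, lay in the cluster of conventional dendritic cells. Cells that passed both the B and the T gate carry markers of both types by that choice. They held the 4 transcripts at 39.4% and 40.2% of the B level, the B reference genes at a median of 38.5% and 42.2%, and 10 T reference genes at a median of 58.5% and 51.5% of the T level. Their median depths were 5702 and 5107 UMIs, against 2403 and 1887.5 in B cells and 3074 and 2524 in T cells. Doublet calling had already removed 222 and 174 cells, and keeping them raised the T level to 1.43% and 1.64% of B. Whether the remaining cells are doublets was not tested.

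**Figure D3:**
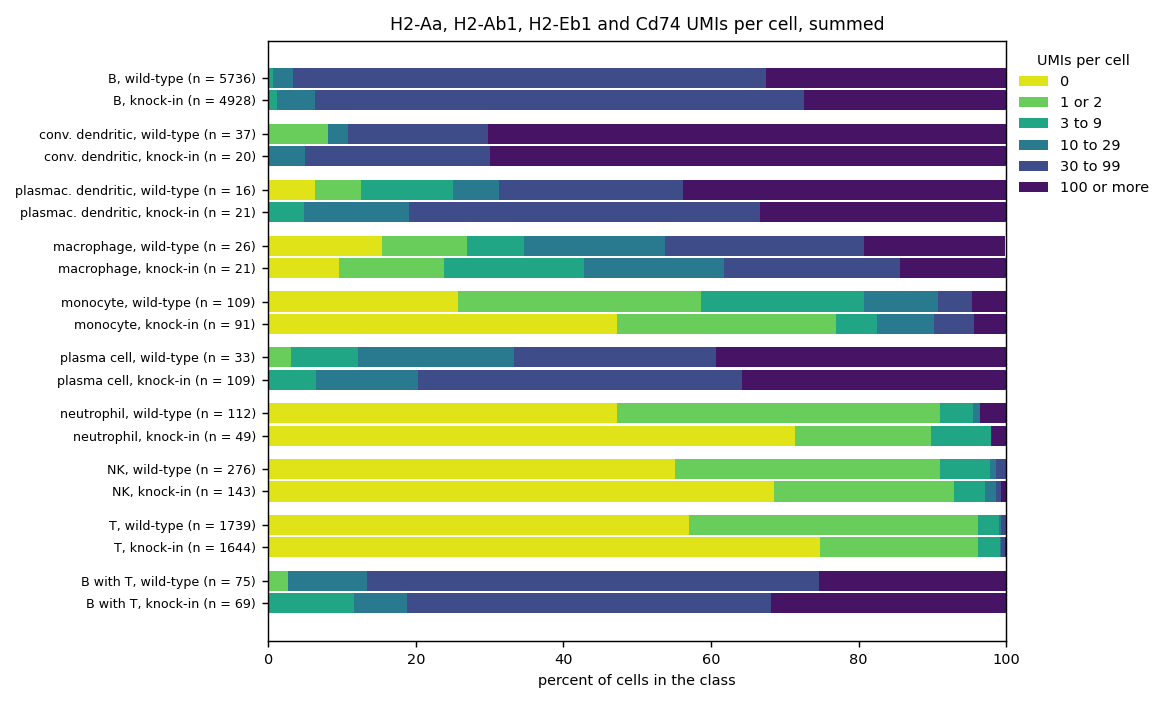
Percent of the cells of each class by the number of H2-Aa, H2-Ab1, H2-Eb1 and Cd74 UMIs they held, with wild-type above knock-in in each pair. In T cells 57.0% and 74.8% held 0, in B cells 99.4% and 98.9% held 10 or more, and monocytes span the whole scale.

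In the other T cells the DM alpha chain and both DO chains stood apart from the rest of the family. Among T cells with under 10 UMIs of the 4 transcripts (1723 and 1630 cells), these transcripts stood at 0.541% and 0.387% of the B level, as the choice of the cells sets. The genes not used in that choice kept different levels. H2-DMb1 stood at 0.474% and 1.18% of B, H2-DMb2 at 0.549% and 0.412%, and Ciita, on 6 and 2 UMIs, at 1.14% and 0.770%. H2-DMa stood at 3.79% and 5.01% of its B level, H2-Ob at 4.88% and 4.02%, and H2-Oa at 4.04% and 4.61%. The proportions within the family are given for B cells and for all T cells. For each 100 UMIs of H2-Aa, H2-Ab1 and H2-Eb1, B cells held 3.97 and 4.11 H2-Ob UMIs and all T cells 18.8 and 16.2. For H2-DMa the values were 3.57 and 4.05 in B cells and 13.7 and 20.7 in T cells, while Cd74 was at 140.2 and 161 in B cells and 115 and 137 in T cells.

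The H2-Ob signal of T cells was thin but spread widely. In the wild-type library 142 of 1739 T cells had an H2-Ob UMI, of which 124 had 1, and the cell with the most held 5 of 165 UMIs. In the knock-in library 99 of 1644 T cells had one, and the cell with the most held 3 of 110. H2-DMa was found in 109 and 127 T cells, with at most 3 and 6 UMIs in a cell. At 1000 UMIs per cell, 2.54% (1.85 to 3.39) and 2.30% (1.62 to 3.15) of T cells had an H2-Ob UMI, against 40.9% and 42.4% of B cells and 1.47% (0.402 to 3.72) and 0% (up to 2.70) of NK cells. The excess was not confined to the DM and DO genes. Of the 15 B reference genes, Ralgps2 (14.3% and 12.3%), Cd72 (5.92% and 9.17%) and Ighm (3.07% and 4.40%) were also high in these T cells, and the reference genes as a whole ranged from 0.287% to 14.3% and from 0.0811% to 12.3% of B. H2-DMa, H2-Ob and H2-Oa lie inside that range and above its medians of 1.02% and 0.771%. Both CD4 and CD8 T cells showed H2-Ob, at 3.66% and 3.22% of B in the former and 4.75% and 3.56% in the latter. Whether T cells make these transcripts themselves was not tested.

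**Figure D4:**
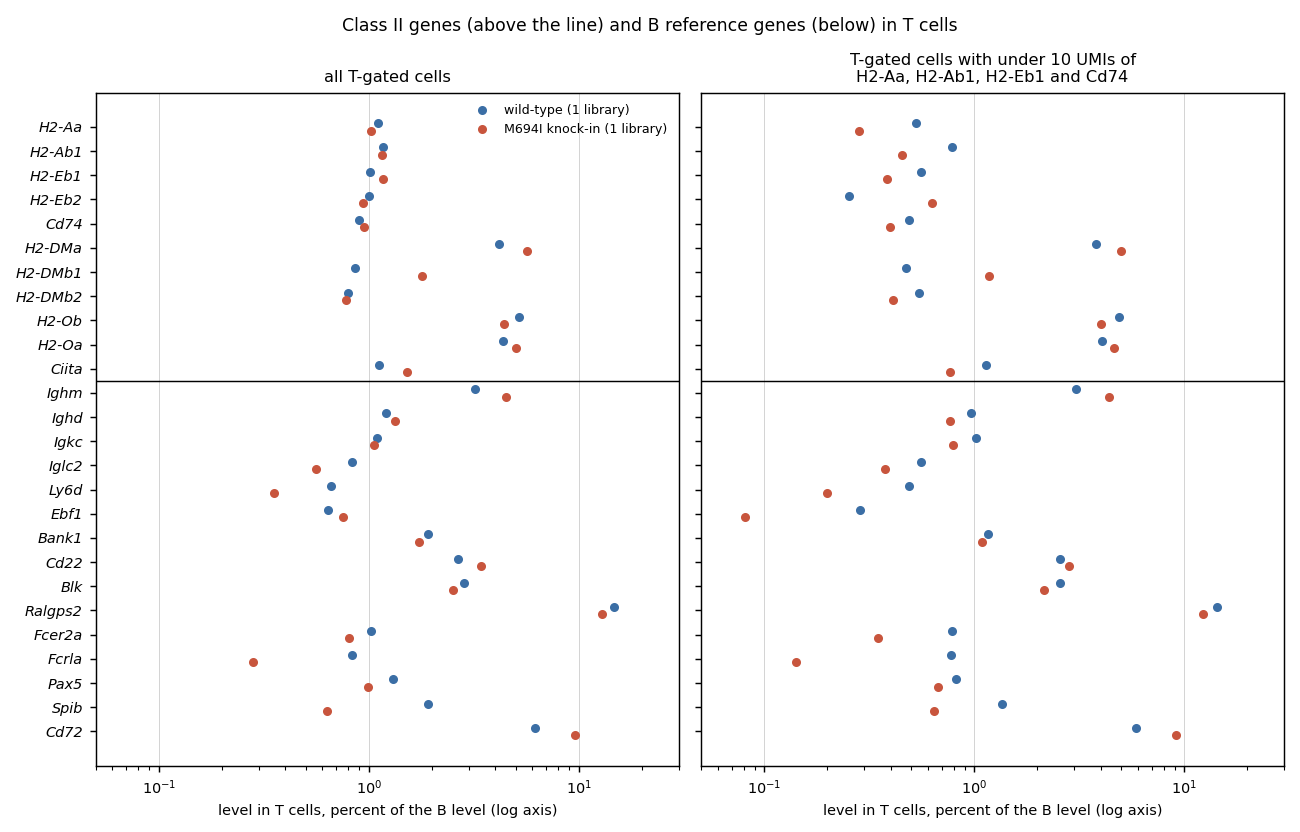
Level in T cells as a percent of the level in B cells of the same library (log axis), for the class II genes above the line and 15 B reference genes below it, over all T cells (left) and T cells with under 10 UMIs of the 4 abundant transcripts (right). H2-DMa, H2-Ob and H2-Oa stay between 3.79% and 5.01% on the right, where H2-Aa, H2-Ab1, H2-Eb1 and Cd74 lie between 0.284% and 0.780%. The choice of those cells sets the low level of the latter 4 genes.

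NK cells showed how far 1 cell can carry such a level. The 4 transcripts stood at 2.06% (1.87 to 2.25) of the B level in wild-type and 6.53% (6.05 to 7.03) in knock-in NK cells. In the knock-in library 1 cell held 579 of the 706 UMIs. That cell lay in the conventional dendritic cluster and had 2 UMIs of B reference genes. The B reference genes stood at a median of 2.18% and 1.17% of B in NK cells. Without the cell with the most UMIs in each library the values were 1.68% and 1.21%. In NK cells with under 10 such UMIs they were 0.855% and 0.634%. By size, 5 of the 5 class II genes that could be measured in NK cells were higher in the knock-in library (called at a log2 ratio of at least 0.32), where 20.9% of all 5473 genes tested were higher and 32.2% lower. H2-Aa had 70 and 131 UMIs in all NK cells. Without the top cell of each library its log2 ratio changed from 2.08 to -0.16, and that of Cd74 from 1.70 to -0.07.

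Neutrophil-gated cells gave a like picture. In the wild-type library they held 1072 UMIs of the 4 transcripts, of which 4 cells in the conventional dendritic cluster held 330, 309, 195 and 127. These 4 cells had 29 UMIs of Il1r2, 3 of Hdc and 1 of Mmp9 among the gate's markers, and 0 of Csf3r and Retnlg. Il1r2 was also present in conventional dendritic cells, at 496 and 248 CPM. The knock-in neutrophil-gated cell with the most class II UMIs lay in a B cell cluster and had 22 UMIs of B reference genes. It held 103 of the 135 UMIs of the 4 transcripts in that library's neutrophil-gated cells. In the 107 and 48 neutrophils with under 10 such UMIs the 4 transcripts stood at 2.04% and 0.706% of the B level.

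Monocytes were split between many cells with few class II UMIs and few cells with many. The median monocyte held 2 (wild-type) or 1 (knock-in) UMIs of the 4 transcripts, while 21 of 109 and 16 of 91 cells held 10 or more and made up 87.5% and 94.5% of the total. Monocyte H2-Aa stood at 482 CPM (421 to 549) and 639 CPM (551 to 737), and Cd74 at 1670.1 CPM (1554 to 1792) and 2378 CPM (2204 to 2561). These levels are above those of T cells and below those of B cells. The same 3 B markers summed to 23.8 and 58.1 CPM in monocytes, against 26.9 and 26.1 CPM in T cells. Against the 3 chains, monocytes were rich in H2-DMa, with 15.3 and 13.7 UMIs per 100, against 3.57 and 4.05 in B cells and 4.20 and 3.87 in conventional dendritic cells. H2-Ob gave 3 and 4 UMIs in all monocytes.

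The B cells of the genotypes could be compared most precisely, and Ciita was the 1 gene of the 10 whose difference reached the size set for a call. Its log2 ratio of knock-in over wild-type was -0.63 (-0.77 to -0.50), from 86.1 to 55.4 CPM. In the list 1 gene was called lower and 0 higher, where 20% of the 6891 genes tested in B cells were called lower and 14.8% higher, so the list holds no more calls than all genes do. The chain genes had ratios near 0. H2-Aa had a log2 ratio of 0.00 (-0.01 to 0.02), H2-Ab1 one of -0.02 (-0.04 to -0.01), H2-Eb1 one of -0.02 (-0.03 to 0.00) and H2-Eb2 one of 0.07 (-0.06 to 0.20). Of the accessory genes, Cd74 and the 3 DM genes were higher beyond counting error and below the size of a call. Cd74 had 0.18 (0.18 to 0.19), H2-DMa 0.17 (0.12 to 0.22), H2-DMb1 0.19 (0.12 to 0.26), H2-DMb2 0.17 (0.12 to 0.21) and H2-Ob 0.04 (-0.01 to 0.08). The median of the 10 genes was 0.05, against -0.05 over all genes tested. The B cells of the libraries also differed in depth, with medians of 2403 and 1887.5 UMIs, and in mitochondrial share, with medians of 5.02% and 4.20%. Ciita stayed the 1 gene called with cells thinned to 1000 UMIs and with a 5% mitochondrial limit. Beyond these runs, the part of depth and mitochondrial share in the ratios was not tested.

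The lower Ciita of the knock-in library was not the same in all B cells. B cells fell into 6 clusters of at least 50 cells per library, made without the class II genes. Ciita stood at 94.5 and 46.1 CPM in the largest, led by Sfn and Zfp318, a log2 ratio of -1.04 (-1.29 to -0.79). In the cluster led by Akap12 and Sox4 it stood at 125 and 73.0 CPM, a ratio of -0.78 (-1.08 to -0.49). In the cluster led by Bcl11a and Fcer2a it stood at 105 and 81.4 CPM, a ratio of -0.36 (-0.61 to -0.12). In these 3 clusters 20.1%, 25.5% and 17.8% of the genes tested were called lower. The remaining clusters had intervals that include 0. Ciita stood at 74.4 and 59.7 CPM in the Mir155hg cluster (-0.32, -0.79 to 0.13), at 41.4 and 33.9 CPM in a cluster led by Cd36, Myof and Cr2 (-0.29, -0.74 to 0.15), and at 37.1 and 42.6 CPM in one led by Zbtb32 and Bhlhe41 (0.20, -0.42 to 0.83). The clusters differed in size between the libraries, for example 903 and 381 cells in the Mir155hg cluster. With the wild-type mix of clusters given to both libraries the Ciita ratio was -0.63, against -0.58 with each library's own mix. Over the same 6 clusters Cd74 had a ratio above 0 in 6 and ran from 0.14 to 0.35, while H2-Aa ran from -0.10 to 0.20. Accessory genes were called higher in 3 of the clusters, with 1 gene in each. These were H2-DMb1 in the Sfn cluster (241 and 320.1 CPM; 0.41, 0.30 to 0.52), H2-DMb2 in the Mir155hg cluster (498 and 639.8 CPM; 0.36, 0.21 to 0.51) and Cd74 in the Zbtb32 cluster (13425 and 17103 CPM; 0.35, 0.32 to 0.38). Of all genes tested there, 14.8%, 19.5% and 25.0% were called higher.

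**Figure D5:**
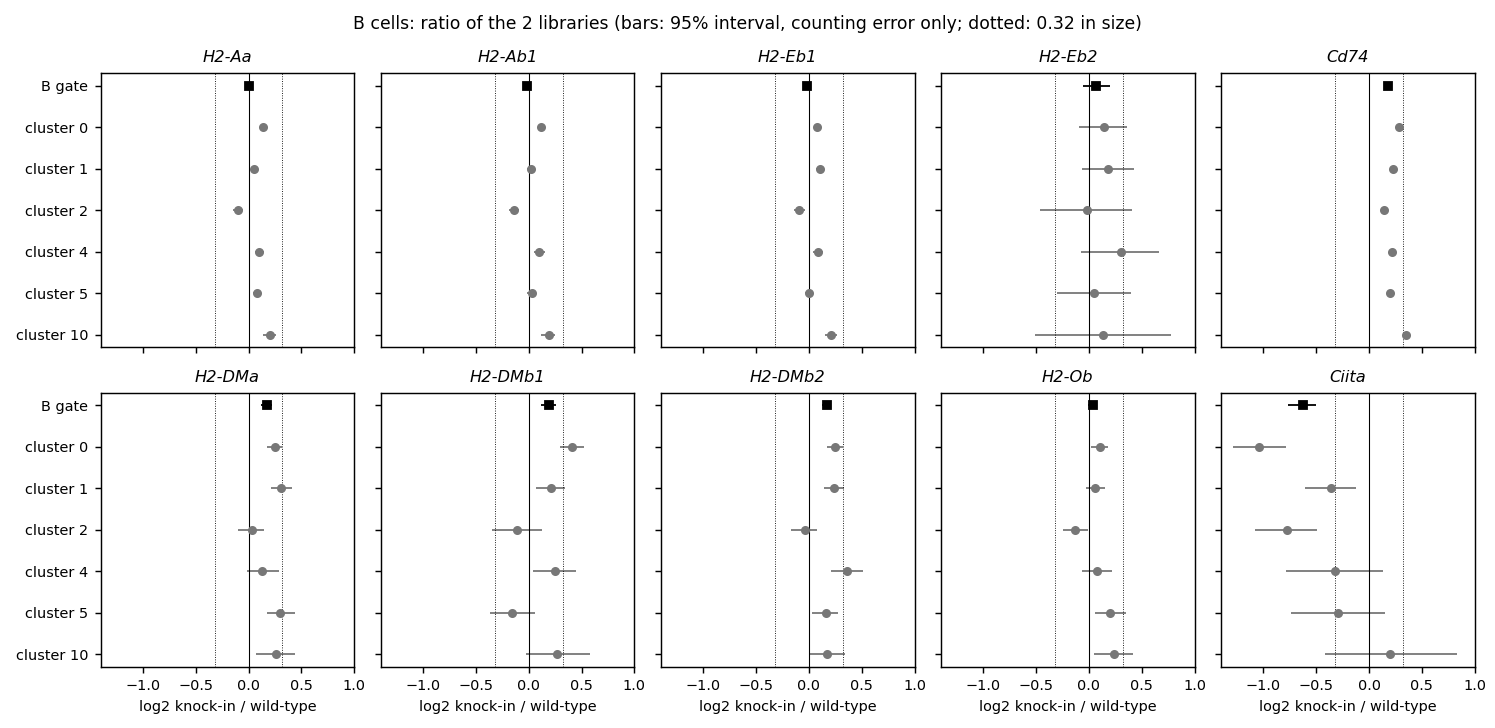
log2 ratio of knock-in over wild-type for each gene in B-gated cells (square) and in 6 B cell clusters (circles), with 95% intervals for counting error, dotted lines at 0.32 in size. Ciita lies at -0.63 in all B cells and between -1.04 and 0.20 in the clusters, while the chains and Cd74 lie between -0.14 and 0.35.

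Genes that control Ciita or bind with it were read from lists chosen with earlier results of these data known. Of the 8 measured regulators of Ciita in B cells, 4 were called lower and 1 higher, with a median log2 ratio of -0.18. Irf4, a transcription factor of activated and plasma-forming B cells, stood at 158 and 99.4 CPM (-0.67, -0.77 to -0.57). Bcl6, the repressor that marks germinal centre B cells, stood at 46.9 and 32.0 CPM (-0.55, -0.73 to -0.38). Of the 6 measured partners on class II promoters, 1 was higher and 1 lower, close to the shares over all genes. Creb1, which binds beside the X element, stood at 49.0 and 35.0 CPM (-0.49, -0.65 to -0.32), and Rfxap, a subunit of the X-binding RFX complex, at 27.9 and 38.4 CPM (0.46, 0.28 to 0.64). Of 8 genes that process antigen and the invariant chain, 2 were called higher and 0 lower, and their median was 0.23. Among them Cst3, a cysteine protease inhibitor, stood at 169 and 232 CPM (0.46, 0.39 to 0.53). Of the 6 measured genes of class II turnover and costimulation, 0 were higher and 1 was lower. H2-Oa had a ratio of 0.31 (0.24 to 0.37). Over all genes tested in B cells 14.8% were called higher and 20% lower.

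Conventional dendritic cells were too few by the gate for a ratio (37 and 20, below the 50 per library set for one), and the dendritic cluster, 122 wild-type and 93 knock-in cells led by Cd209a and Cst3, was compared in its place. H2-Aa stood at 6198 and 6852 CPM (0.14, 0.08 to 0.21), H2-Ab1 at 5267 and 5856 CPM (0.15, 0.09 to 0.22) and H2-Eb1 at 5937 and 5642 CPM (-0.07, -0.14 to -0.01). Cd74 was at 16202 and 19386 CPM (0.26, 0.22 to 0.30), below the size set for a call. H2-DMb1 was the 1 gene called higher (446 and 581 CPM; 0.38, 0.16 to 0.61), where 25.9% of 5840 genes were higher. Ciita and H2-Eb2 were the 2 called lower, where 28.8% were lower, and the intervals of both include 0. Ciita rested on 41 and 16 UMIs, or 51.1 and 31.0 CPM (-0.72, -1.65 to 0.15). Of the pathway genes, Nfya, a subunit of the Y-binding NF-Y complex, had a ratio of -1.27 (-2.61 to -0.11), Irf4 one of -1.01 (-1.77 to -0.30) and Ebf1, a B lineage factor, one of -0.98 (-1.44 to -0.54). Ebf1 stood at 214 and 109 CPM in this cluster, against 2336 and 1842 CPM in B cells.

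In monocytes 4 of the 6 measured genes were called higher in the knock-in library and 0 lower, beside 25.5% and 28.1% of the 4340 genes tested. H2-Aa had a log2 ratio of 0.41 (0.12 to 0.69), H2-Eb1 one of 0.52 (0.19 to 0.85), Cd74 one of 0.51 (0.36 to 0.66) and H2-DMb1, on 32 and 35 UMIs, one of 0.79 (0.06 to 1.53). The median of the 6 was 0.46. B genes were higher in the same cells of the knock-in library. The 3 B markers went from 23.8 to 58.1 CPM. The 15 B reference genes together went from 239.8 to 465 CPM, with 10 higher and 4 lower. Igkc (62.7 and 225 CPM) and Ly6d (2.16 and 20.5 CPM) were among those higher. In B cells themselves Igkc, the largest of the 15 there, stood at 6689 and 14862 CPM, while Ebf1 stood at 2336 and 1842 CPM. Sums of the 15 genes, here and below, therefore do not measure B content alone. The part of the B genes in the monocyte ratios was not tested. With each cell given equal weight the median was -0.05, and with cells thinned to 1000 UMIs it was -0.03, with 1 gene called higher in each case. The 2 monocyte clusters went opposite ways. In the cluster led by Lyz2 and Fn1, genes of classical monocytes, H2-Aa stood at 628 and 1144 CPM (0.87, 0.67 to 1.06) and Cd74 at 1876 and 3981 CPM (1.09, 0.98 to 1.19), and 7 of 8 measured genes were higher, beside 22.5% of all genes. In the cluster led by Ace and Adgre4, genes of non-classical monocytes, H2-Aa stood at 1478 and 707 CPM (-1.06, -1.41 to -0.72) and Cd74 at 3897 and 2569.6 CPM (-0.60, -0.79 to -0.41), and 5 of 6 were lower, beside 29.3%. The B lineage gene Ebf1, at 2336 and 1842 CPM in B cells, moved with the class II genes in the second cluster, from 556 to 189 CPM (-1.56, -2.23 to -0.93), and stood at 97.5 and 94.0 CPM in the first. The 3 B markers moved with the class II genes in both, from 145 to 298 CPM in the first cluster and from 976 to 357 CPM in the second. The 15 B reference genes together went from 767 to 12947 CPM in the first cluster, with 10 higher and 5 lower. Neither the 3 B markers nor Ebf1 rose to that degree there, and the genes or cells behind this sum are not broken down here. In the second cluster the 15 genes together went from 3601 to 1988 CPM, with 2 higher and 13 lower. The part of the B genes in these ratios was not tested, nor was the difference between the clusters. These sums also rest on few cells. In the first cluster 32 wild-type and 32 knock-in cells held 10 or more UMIs of the 4 transcripts, and in the second 15 and 8, of which 1 knock-in cell held 41.7% of that library's total.

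In T cells 1 of 6 measured genes was called higher and 0 lower, beside 17.4% and 14.0% of 6756 genes. That gene was H2-DMa, at 19.4 CPM (16.1 to 23.2) and 29.5 CPM (24.8 to 34.8), a log2 ratio of 0.61 (0.24 to 0.97). H2-Ob had a ratio of -0.20 (-0.56 to 0.16) and Cd74 one of 0.26 (0.13 to 0.39). At 1000 UMIs per cell, 1.44% (0.935 to 2.12) and 3.04% (2.26 to 4.0) of T cells had an H2-DMa UMI.

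Within the T gate, H2-Aa, H2-Ab1, H2-Eb1 and Cd74 were called higher in CD4 and lower in CD8 T cells. Most of the CD4 rise lay in 1 knock-in cell. In CD4 T cells (Cd4 and no Cd8 UMI; 237 and 159 cells) 5 of 6 measured genes were called higher and 0 lower, beside 30.8% and 22.4% of 6155 genes. H2-Aa stood there at 30.2 and 176 CPM (2.54, 1.92 to 3.20) and Cd74 at 125 and 409 CPM (1.71, 1.37 to 2.05). Of the knock-in UMIs of the 4 transcripts, 1 cell held 78.2%, the one of the dendritic cluster described above. Without the top cell of each library the 4 transcripts stood at 163 and 189 CPM, against 206 and 856 CPM with it. In CD8 T cells (466 and 595) 5 of 6 were called lower and 1 higher, beside 18.5% and 19.2% of 6517 genes. H2-Aa stood at 39.6 and 14.1 CPM (-1.49, -2.15 to -0.87) and Cd74 at 109.6 and 52.5 CPM (-1.06, -1.4 to -0.73), while H2-DMa was higher, at 17.3 and 28.1 CPM (0.70, 0.07 to 1.36). Without the top cells the 4 transcripts stood at 203 and 96.7 CPM. The 3 B markers stood at 24.0 and 12.7 CPM in CD4 and at 26.4 and 17.3 CPM in CD8 T cells. The 15 B reference genes together stood at 230.2 and 405 CPM in CD4 T cells, with 5 higher and 9 lower in the knock-in library. In CD8 T cells they stood at 255 and 320.1 CPM, with 7 higher and 8 lower.

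Among the clusters named as T cells by their markers, those led by Tnfrsf4 and by Ccl5 went opposite ways. In both, the 3 B markers moved with the class II genes. In a cluster led by Tnfrsf4 and Tnfsf8 (298 and 412 cells) 8 of 8 measured genes were higher, beside 23.1% of all genes. H2-Aa stood at 122 and 265 CPM (1.12, 0.79 to 1.45) and Cd74 at 456 and 1245 CPM (1.45, 1.29 to 1.61). Cells with 10 or more UMIs of the 4 transcripts, 10 and 21 in number, held 75.8% and 89.1% of them. The 3 B markers went from 136 to 219 CPM there. The 15 B reference genes together went from 601 to 1336 CPM, with 11 higher and 4 lower. In a cluster led by Ccl5 and Ctla2a (337 and 478 cells) 4 of 6 were lower, beside 20.2% of all genes. H2-Aa stood at 122 and 37.3 CPM (-1.71, -2.16 to -1.28) and Cd74 at 412 and 129 CPM (-1.67, -1.90 to -1.44), with 13 and 6 cells holding 81.9% and 65.4% of the UMIs. The 3 B markers went from 82.3 to 41.1 CPM there. The 15 B reference genes together went from 437 to 386 CPM, with 5 higher and 10 lower. Larger T cell clusters showed smaller ratios. With 887 and 425 cells, H2-Aa had -0.57 (-0.87 to -0.27) and Cd74 0.04 (-0.09 to 0.17). With 408 and 521 cells, H2-Aa had -0.32 (-0.66 to 0.01) and Cd74 -0.22 (-0.38 to -0.05). The part of B genes in these ratios and the differences between the T cell groups were not tested.

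The genes whose levels followed Ciita most closely over 4 classes in both libraries (8 points; B, T, NK and monocyte; Pearson r of log2(CPM + 1)) were Fcrla (0.9929), Spib (0.9924), Pax5 (0.9917), Hs3st1 (0.9851) and Arpc5l (0.9834), out of 4169 genes. Those closest to the sum of H2-Aa, H2-Ab1 and H2-Eb1 were Bcl11a (0.9865), Serp1 (0.9739), Pkib (0.9720), Pkig (0.9641) and B3gnt5 (0.9632). The lists share no gene. The points share libraries and class depths, and no p is given.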

How the data were processed

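The authors deposited unnormalized UMI counts for every gene in every barcode. The matrix headers give Cell Ranger 6.1.2, whereas 7.1.0 stands in the submitters' processing notes, beside Seurat 5.0.3 and mm10. Cells with at least 500 UMIs, 200 genes and under 10% mitochondrial UMIs were kept. Doublets were removed with Scrublet in scanpy 1.11.5 (expected rate 0.08). Its score limit of 0.37 was set for both libraries after the automatic limit had failed in 1. Counts were summed per library and class and scaled to CPM, with Poisson, Clopper-Pearson or conditional binomial 95% intervals. A gene was measured at a mean of 10 CPM and 20 UMIs, and called at a log2 ratio of 0.32 in size. A library at 0 was set to 3 counts. Clusters came from 2000 variable genes without the class II genes, 30 principal components, 15 neighbours and leidenalg 0.10.2, and were named by a marker score set after they had been seen. The scripts were tested on simulated data. The genes, lists and alternatives were chosen with earlier results of these data known. All 10 genes were named; of the pathway lists, the 4 largest ratios in B cells (a tie made 5) and 3 in dendritic cells; and the 5 genes most like Ciita or the chains. H2-Ea is not analysed here. Of the B gate's markers, 1 is not reported here.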

Additional observations from a re-analysis of the deposited data

How the results depend on the processing

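The Ciita ratio in B cells lay between -0.65 and -0.58 under every alternative run, and the counts of class II genes called there were unchanged. The median ratio of the 10 genes in B cells was 0.14 with cells weighted equally. In monocytes, 1 gene was higher with cells thinned to 1000 UMIs (and 1 lower) and 1 with cells weighted equally, and 7 were higher and 1 lower with no filter on low values; the medians under thinning and equal weights were -0.03 and -0.05. Equal weights turned H2-Aa to -0.07 and H2-Eb1 to -0.13, and thinning turned H2-Eb1 to -0.20 and H2-DMb1 to -0.17. The stricter gate left under 50 monocytes per library and gives no value there. In NK cells the ratios turned to -0.16 (H2-Aa), -0.79 (H2-Ab1), -1.04 (H2-Eb1) and -0.07 (Cd74) without the top cell of each library. With the stricter gate they turned to -1.42, -2.0, -1.20 and -1.68.

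The level of the 4 abundant transcripts as a percent of B is given here for wild-type T, knock-in T, wild-type NK and knock-in NK cells. It was 1.43, 1.64, 2.90 and 7.52 with doublets kept, 0.549, 0.384, 1.45 and 0.458 with the stricter gate, and 2.81, 2.70, 3.36 and 7.28 with clusters as classes. It was 0.814, 0.771, 1.66 and 1.90 with thinned cells, 0.839, 0.782, 1.49 and 1.91 with equal weights, and 1.08, 1.08, 1.80 and 5.69 without immunoglobulin, ribosomal and mitochondrial genes in the total. Without the top cell it was 0.923, 0.813, 1.68 and 1.21, and with no B marker 0.623, 0.634, 1.43 and 6.35. A 5% mitochondrial limit gave 1.03 and 1.08 in T cells. The causes were not tested, other than the top cell. Of 418 other values under alternatives, 318 stayed within the counting interval, 88 moved outside it and 12, printed above, changed sign. The alternative without shared barcodes was chosen after seeing the data. No paired analysis was possible because each genotype has 1 library and their shared number marks no pair. Depth limits the dendritic, macrophage and NK values, and Ciita outside B cells.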

Other observations

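Some small clusters that no marker list named held class II levels of their own. A cluster led by Fscn1 and Il12b (39 wild-type and 32 knock-in cells) carried H2-Aa at 6670.3 CPM (6253 to 7108) and 5164 CPM (4684 to 5679.6). The dendritic cluster held H2-Aa at 6198 and 6852 CPM, so the knock-in value lies below it. The Fscn1 cluster held H2-Eb2 at 210.0 CPM (142 to 299.8) and 171 CPM (93.2 to 286), above the 64.4 and 67.6 CPM of B cells. Its Cd74 was low for its chains, at 72.3 and 89.0 UMIs per 100 UMIs of H2-Aa, H2-Ab1 and H2-Eb1, and so was H2-DMa, at 0.927 and 1.86 per 100. H2-DMa per 100 was 3.75 and 4.31 in the conventional dendritic cluster.

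A cluster of 74 wild-type and 121 knock-in cells led by Pclaf and Birc5, genes of dividing cells, had all 10 genes called higher in the knock-in library, beside 20.9% of 7111 genes. The intervals of Ciita (0.51, -0.26 to 1.32), H2-Eb2 (0.65, -0.16 to 1.52) and H2-Ob (0.35, -0.01 to 0.71) include 0. H2-Aa stood at 1179 and 1638 CPM and Cd74 at 4116 and 6432 CPM there. Of these cells 40 and 89 held 10 or more UMIs of H2-Aa, H2-Ab1, H2-Eb1 and Cd74, or 54.1% and 73.6%. The B markers Cd79a, Cd79b and Ms4a1 summed to 1521 and 2056 CPM in the cluster. The 15 B reference genes together stood at 6691 and 10664 CPM, with 10 higher and 5 lower. That sum includes Igkc, which stood at 6689 and 14862 CPM in B cells. The part of these B genes in the ratios was not tested.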
